A study of Mus musculus with 4 samples.

Results

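Activator protein 1 (AP-1) is a family of basic leucine zipper transcription factors, and 9 of its genes were followed here across immune cell types and across subclusters of group 2 innate lymphoid cells (ILC2s): *Fos*, *Fosb*, *Fosl1*, *Fosl2*, *Jun*, *Junb*, *Jund*, *Batf* and *Atf3*. They were chosen by name as members of the family, with earlier results of these data known, and were 9 of the 3488 genes found in a pair of marker tables as a whole. The table of ILC2 subclusters held 7 of the 9 genes, all but *Fosl1* and *Atf3*. The table of cell types held 6, all but *Junb*, *Jund* and *Batf*, and 4 genes (*Fos*, *Fosb*, *Fosl2* and *Jun*) were in both. For comparison, the cell types listed 1679 genes, with p-values adjusted by the authors for 2000 features. The subclusters listed 2629 genes, with p-values adjusted for a median of 14354 features. *Junb*, *Jund* and *Batf* may thus be absent from the cell types because they were not among the 2000.

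The cells came from wild-type BALB/c mice, 8 weeks old, that were injected intraperitoneally on each of 5 days with PBS or with recombinant IL-33 (rIL-33) at 0.5 µg. Lineage-negative cells carrying CD127, Thy1 and ST2 were sorted from liver and lung, 2 to 6 mice were pooled per group, and transcripts of single cells were sequenced. Each of the 4 groups (liver after rIL-33, liver after PBS, lung after rIL-33 and lung after PBS) gave 1 library, and both tables pool the 4. Because the tables do not split any value by library, rIL-33 was not compared with PBS nor liver with lung, there were no replicates, and no test was run.

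AP-1 binds DNA as a dimer. FOS proteins (FOS, FOSB, FOSL1, FOSL2) pair with JUN proteins (JUN, JUNB, JUND), JUN proteins can also pair among themselves, and BATF and ATF3 pair with JUN proteins as well. *Fos*, *Fosb*, *Jun*, *Junb* and *Atf3* are classic immediate early genes, switched on within minutes by growth factors, cytokines, stress or tissue handling, whereas *Jund* is expressed more steadily in many cells. BATF lacks a transactivation domain of its own and works with IRF factors in lymphocytes. ILC2s are tissue lymphocytes that depend on GATA3 and release type 2 cytokines when IL-33 binds its receptor ST2, and that receptor signals through MAP kinases and NF-κB to AP-1 and other factors.

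The promoters of *Fos*, *Fosb* and *Batf* are printed because these genes had different patterns over the ILC2 subclusters: *Fos* and *Fosb* had a listing for subcluster 3, and *Batf* had listings for subclusters 1, 2 and 7 and for no subcluster that listed *Fos* or *Fosb*. Each is the RefSeq sequence (GRCm38.p6), written 5′ to 3′ on the strand of the gene, from 250 bases before to 50 bases from the start. The windows are chr12:85473640-85473939 on the plus strand for *Fos*, chr7:19309996-19310295 on the minus strand for *Fosb* and chr12:85686470-85686769 on the plus strand for *Batf*. Capitals mark matches to the motifs named in the next paragraph.
Fos: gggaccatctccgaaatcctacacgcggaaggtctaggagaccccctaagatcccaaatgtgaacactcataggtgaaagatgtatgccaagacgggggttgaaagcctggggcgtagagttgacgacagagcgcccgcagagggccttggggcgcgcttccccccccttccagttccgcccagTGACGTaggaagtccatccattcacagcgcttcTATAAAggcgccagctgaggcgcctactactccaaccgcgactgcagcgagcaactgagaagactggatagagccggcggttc
Fosb: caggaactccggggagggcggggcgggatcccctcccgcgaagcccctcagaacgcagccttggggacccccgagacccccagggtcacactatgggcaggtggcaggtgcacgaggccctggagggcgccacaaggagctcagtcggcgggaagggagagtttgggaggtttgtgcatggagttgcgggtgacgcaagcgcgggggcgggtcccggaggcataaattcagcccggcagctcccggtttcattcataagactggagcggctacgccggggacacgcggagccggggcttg
Batf: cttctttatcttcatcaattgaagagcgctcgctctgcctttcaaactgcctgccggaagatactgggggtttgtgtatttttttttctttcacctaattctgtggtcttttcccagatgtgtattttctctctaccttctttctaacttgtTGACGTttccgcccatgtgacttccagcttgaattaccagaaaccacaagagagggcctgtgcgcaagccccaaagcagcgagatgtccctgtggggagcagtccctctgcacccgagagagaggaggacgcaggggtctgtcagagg

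A set of 6 motifs was searched on both strands. The AP-1 site was spelled TGACTCA and the cAMP response element TGACGTCA, which also holds the shorter core TGACGT searched by itself. The TATA box was spelled TATAAA, and the CCAAT box was searched as named. The last motif was the CArG box bound by serum response factor. The *Fos* window held TGACGT at positions -66 to -61 and TATAAA at -33 to -28, counted from the first transcript base as 0. The *Batf* window held TGACGT at -98 to -93, and the *Fosb* window held none of the 6. Entries were found for 8 of the 9 genes. Over those 8, the AP-1 site, the full cAMP response element and the CArG box had no match, *Atf3* held TGACGT and CCAAT on the strand opposite to the gene, *Jun* held CCAAT, *Junb* held CCAAT and TATAAA, and *Fosl2* and *Jund* held none. Of the 32851 promoters in the same RefSeq set, 5.20% held the AP-1 site, 1.79% the full cAMP response element, 7.51% its shorter core, 13.6% the TATAAA string, 37.4% the CCAAT string and 1.63% the CArG box. A match describes the letters and does not show a bound site. A missing match holds for the window only, since nothing further than 250 bases before the start was searched.

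In the GENCODE annotation of the same build all 9 genes are protein-coding. *Fos* (chr12:85473890-85477273) and *Batf* (chr12:85686669-85709087) lie on the plus strand of the same chromosome, 209396 bases apart. *Junb* (chr8:84974484-84978718, minus strand) and *Jund* (chr8:70698949-70700616, plus strand) share a chromosome at a distance of 14273868 bases. The others lie apart: *Fosb* at chr7:19302696-19310051 (minus), *Fosl1* at chr19:5447547-5455946 (plus), *Fosl2* at chr5:32135801-32157842 (plus), *Jun* at chr4:95049034-95052222 (minus) and *Atf3* at chr1:191170296-191218039 (minus). The RefSeq start used for the *Fosb* and *Batf* windows lies a little downstream of the GENCODE gene start (chr7 19310045 and chr12 85686720), and that of *Fos* is the same. Other searched windows began far from the GENCODE gene start: the RefSeq start of *Jund* lies 1210 bases upstream, and those of *Fosl2* (chr5 32136472) and *Atf3* (chr1 191183333) lie well downstream of it, so the motif results of these 3 genes describe the RefSeq windows only.

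The values are shares of cells: the percentage of cells with a value above 0 for a gene inside a cluster, and the same percentage in all other cells of the table. A listing means that a gene has an entry for a cluster in the marker table. Every listing had a higher average in the cluster than outside, but the share of cells inside could still be lower than outside, so the direction of the share is given each time. Shares were deposited to 0.1 of a percentage point, so each carries a rounding error of 0.05 points. The odds ratio (odds inside over odds outside) is given beside the difference because a gene found in nearly all cells cannot rise by many points.

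The 10 ILC2 subclusters, numbered 0 to 9, had 3745 listings of 2629 genes. Solved from the shares, the subclusters ran from 27.3% of the ILC2s (subcluster 0) down to 0.611% (subcluster 9). Subcluster 3, where most of the results below lie, held 14.9% of the cells, and subcluster 5 held 3.87%. The label was checked on the shares over all ILC2s of the table: *Gata3* was found in 90.9% of cells and *Il1rl1*, which encodes ST2, in 89.2%, while the T cell genes *Cd3e* and *Trdc* were found in 5.8% and 7.7%. Other genes of the T cell list were found in more cells: *Tcrg-C1* in 26.0%, *Cd3g* in 32.9%, *Trbc1* in 79.6% and *Trbc2* in 81.8%. ST2, CD127 and Thy1 were used in the sort, the sort and the study's later exclusion of cells with *Cd3* were set against T cells, and neither set of genes is an independent check.

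AP-1 genes were listed most often for subclusters 3 and 5, and in opposite directions of the share. Subcluster 3 listed 9.01% of all genes and subcluster 5 listed 38.0%, and 978 of the 1000 listings of subcluster 5 had lower shares. Of the 18 AP-1 listings, 13 had a higher share inside the subcluster and 5 a lower share, and all 5 lower shares were in subcluster 5. Over all listings of the table, 70.5% had a higher share inside. The median difference of the 18 was 7.7 percentage points, against 13.3 points over all listings. Each listed AP-1 gene had a median of 3.0 listings, against 1.0 over all genes of the table, and *Fosl2*, with 4, was among 79 of the 2629 genes that were listed for 4 or more subclusters.

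**Figure D1:**
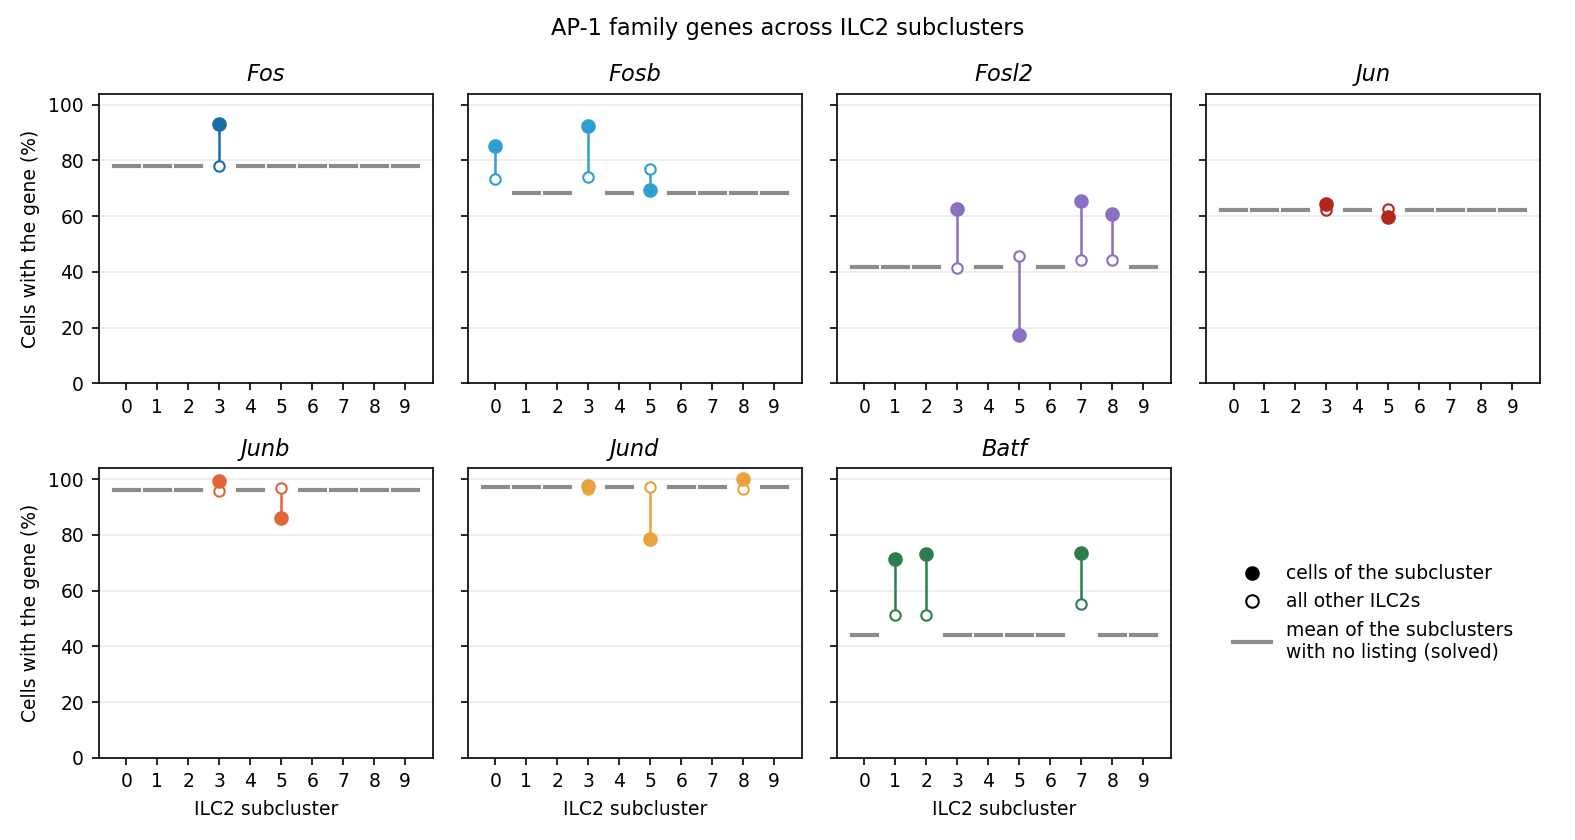
Percentage of cells in which each AP-1 gene was found (vertical axis), 1 panel per gene, in the cells of each ILC2 subcluster that listed it (filled) and in all other ILC2s (open), with grey bars for the solved mean of the subclusters with no listing, all 4 libraries pooled. Subcluster 3 holds 6 of the genes, with *Fos* at 92.9% inside and 77.9% outside, and in subcluster 5 all 5 listed genes lie below the other cells.

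In subcluster 3, 6 of the 7 genes were listed, all with a higher share inside: *Fos*, *Fosb*, *Fosl2*, *Jun*, *Junb* and *Jund*. With a difference of at least 10 points, 3 of the 6 remained (*Fos*, *Fosb* and *Fosl2*). For comparison, 9.01% of all genes of the table were listed for subcluster 3. The median difference of the 6 was 9.2 points and their median odds ratio 3.05, against 6.4 points and 1.43 over all 237 genes listed there. *Batf* was the one gene of the 7 without a listing for subcluster 3.

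Among the FOS genes, *Fos* was found in 92.9% of subcluster 3 cells and in 77.9% of the other ILC2s, an odds ratio of 3.71 (3.67 to 3.75 over the rounding of the shares). It had no other listing. *Fos* thus lay 15.0 points higher in subcluster 3, while most cells of the other subclusters also held it.

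*Fosb*, the paralogue of *Fos*, was found in 92.4% of subcluster 3 cells against 73.9% of the others, an odds ratio of 4.29 (4.25 to 4.34). It was also listed for subcluster 0, at 85.3% against 73.4% (odds ratio 2.10), among 11.4% of all genes listed there. In subcluster 5 its share was lower, at 69.3% against 77.0%. Over the 7 subclusters that did not list it, the mean share of *Fosb* was 68.3%, so its order from high to low was subcluster 3, subcluster 0, subcluster 5 and the mean of the rest. The last 2 lie further apart than the rounding of the shares, and the spread between libraries is unknown.

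*Fosl2* encodes FRA-2, a FOS protein that lacks the strong transactivation domain of FOS. It was found in 62.7% of subcluster 3 cells against 41.3% of the others, a difference of 21.4 points that ranked 9 among the 237 genes listed there. It was also higher in the small subclusters 7 (65.5% against 44.2%) and 8 (60.7% against 44.4%), where its differences ranked 162 of 270 and 173 of 253. In subcluster 5 it was found in 17.3% of cells against 45.6%, the largest difference of any AP-1 gene in either direction among the subclusters, at -28.3 points. The remaining 6 subclusters had a mean share of 41.8%.

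Among the JUN genes, *Jun* was found in 64.2% of subcluster 3 cells against 62.1%, a difference of 2.1 points with an odds ratio of 1.09, and in subcluster 5 in 59.7% against 62.5%. Its mean share over the other 8 subclusters was 62.1%. Both listings of *Jun* thus differed from the other cells by under 3 points.

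*Junb* was found in 99.2% of subcluster 3 cells against 95.7% of the others. The difference was 3.5 points and ranked 164 of 237, whereas the odds ratio of 5.57 (5.18 to 6.02) ranked 4. In subcluster 5 the share of *Junb* was 86.2% against 96.7%, and the mean over the other 8 subclusters was 96.0%. The mean elsewhere thus lay between the values of its 2 listed subclusters.

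*Jund* was found in 97.5% of subcluster 3 cells against 96.4%, in 100% of subcluster 8 cells against 96.6%, and in 78.5% of subcluster 5 cells against 97.3%. The last gave an odds ratio of 0.101, which ranked 994 of the 1000 genes listed for subcluster 5 when ordered from high to low. The mean share of *Jund* over the other 7 subclusters was 97.1%.

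**Figure D2:**
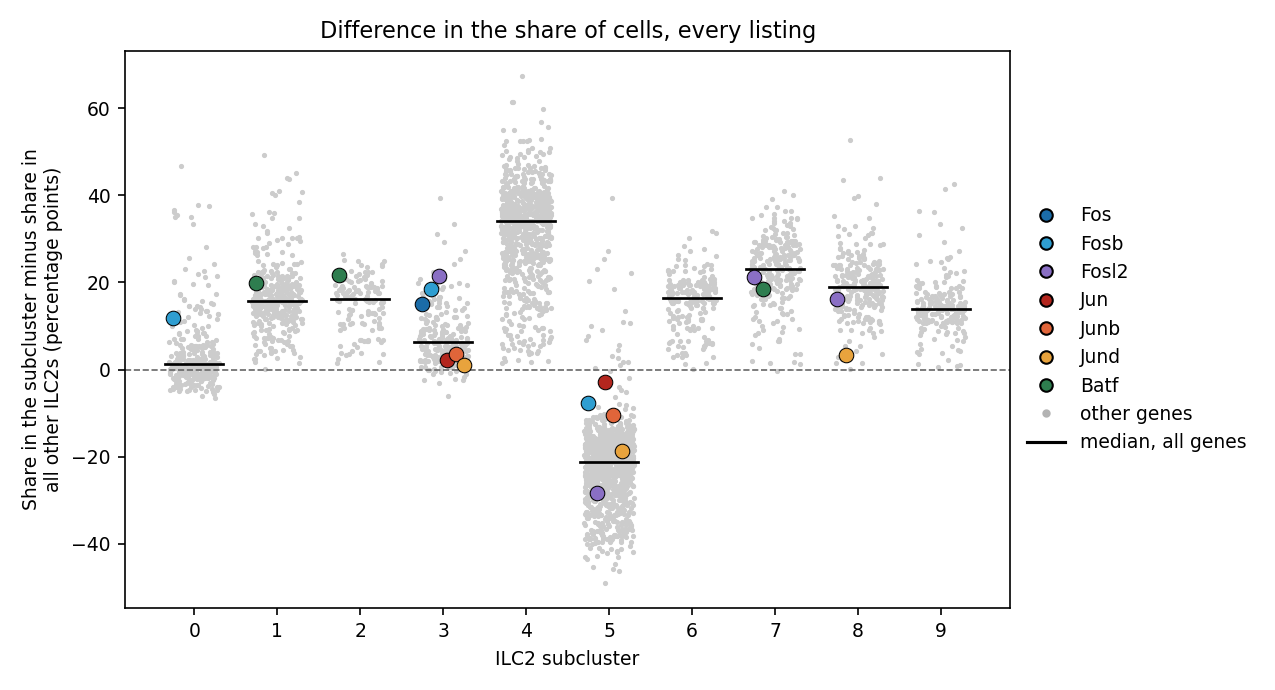
Share inside minus share outside (percentage points, vertical axis) for every listing of each ILC2 subcluster, with AP-1 genes coloured, other genes grey and a black bar at the median over all listed genes. In subcluster 3 the median of the 6 AP-1 genes is 9.2 points and that of all genes 6.4, and in subcluster 5 they are -10.5 and -21.3.

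*Batf* had a pattern of its own. It was found in 71.2% of subcluster 1 cells against 51.3% of the others (odds ratio 2.35), in 73.1% of subcluster 2 cells against 51.3% (odds ratio 2.58), and in 73.5% of subcluster 7 cells against 55.1% (odds ratio 2.26). Of all genes, 13.8% were listed for subcluster 1, 4.98% for subcluster 2 and 10.3% for subcluster 7. In subcluster 2 the difference of 21.8 points ranked 14 of 131, whereas the odds ratio ranked 75. By odds ratio *Batf* ranked 224 of 363 in subcluster 1 and 240 of 270 in subcluster 7, below the medians of all listed genes in all 3 (2.66, 2.81 and 3.65 in subclusters 1, 2 and 7). The 3 subclusters hold 39.8% of the ILC2s, and the mean share of *Batf* over the other 7 was 44.1%. *Batf* shared subcluster 7 with *Fosl2* and shared no listing with *Fos*, *Fosb*, *Jun*, *Junb* or *Jund*.

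In subcluster 5 the listings of *Fosb*, *Fosl2*, *Jun*, *Junb* and *Jund* all had lower shares inside, with a median difference of -10.5 points and a median odds ratio of 0.25. This was the rule for that subcluster and not particular to AP-1: 38.0% of all genes were listed for it, exactly 1000, and 978 of these had lower shares inside, with a median difference of -21.3 points and a median odds ratio of 0.306. So round a number may be a limit set when the table was written, in which case the percentage, the ranks and the medians for subcluster 5 describe a shortened list. These genes were found in fewer cells of subcluster 5, and their average was above that of the other cells all the same. Of 14 T cell marker genes, 6 were listed for subcluster 5, 5 of them with a higher share inside. Among these were *Cd3e* at 32.0% against 4.7% and *Trdc* at 25.6% against 7.0%, and *Cd3g* at 39.5% against 32.6%. The other, *Trbc1*, had a lower share inside, at 45.0% against 81.0%. Depth per cell was not in the tables. The part of T cell transcripts or depth in the AP-1 shares of subcluster 5 was not tested.

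Subclusters 4, 6 and 9 listed no AP-1 gene. They listed 30.5%, 7.23% and 7.57% of all genes. Subcluster 4 was the one in which 8 of 10 proliferation genes were listed. Subcluster 8 listed *Fosl2* and *Jund*, against 9.62% of all genes, and with 0.668% of the ILC2s it was the second smallest subcluster. For subclusters without a listing the tables give only the means over several subclusters stated above, and a missing listing does not show that a gene was unchanged there.

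Over all ILC2s of the table the share of cells was 96.6% for *Jund*, 96.3% for *Junb*, 80.1% for *Fos*, 76.7% for *Fosb*, 62.4% for *Jun*, 55.3% for *Batf* and 44.5% for *Fosl2*. The estimates from different listings of 1 gene lay close together (96.22% to 96.29% for *Junb* and 96.56% to 96.62% for *Jund*), so neighbours in this order differ by more than rounding, and the spread between libraries is unknown. Shares are no measure of transcript level between genes, since longer or better captured transcripts are found in more cells.

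The genes with listings for exactly the same subclusters as an AP-1 gene were ordered by how closely their differences in share matched. *Fosb* shared its set of 3 with 25 genes, of which *Ssbp2* (mean absolute gap of 6.07 points), *P2rx4* (7.90) and *Inpp4b* (8.47) were closest. *Jun* and *Junb* had the same set, shared with 39 genes each. Closest to *Jun* were *Rhob* (4.10), *Fam13b* (4.30) and *Junb* (4.55), and closest to *Junb* were *Fam13b* (0.55), *Clk1* (2.70) and *Btg1* (2.90). *Jund* shared its set with *Peli1* alone (8.97), and *Fosl2* and *Batf* with no gene. These are likenesses over 2 or 3 subclusters.

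Other immediate early genes were listed for subcluster 3 with the AP-1 genes. Of 17 such genes on the list, 12 were listed for subcluster 3, against 9.01% of all genes, and all 12 had a higher share inside, as had 222 of the 237 genes listed there. *Klf4*, a zinc finger factor, was found in 43.4% of subcluster 3 cells against 18.1%, *Zfp36l1*, an mRNA decay factor, in 98.0% against 81.2%, and the orphan nuclear receptors *Nr4a1* and *Nr4a2* in 72.5% against 58.0% and 27.0% against 13.3%. Subclusters 1 and 7 listed 6 of the 17 each and subcluster 8 listed 4, all with higher shares, against 13.8%, 10.3% and 9.62% of all genes in subclusters 1, 7 and 8. The differences of *Nr4a1* were larger there than in subcluster 3, at 79.5% against 55.3% in subcluster 1, 89.0% against 59.7% in subcluster 7 and 82.0% against 60.0% in subcluster 8. In subcluster 5, 7 of the 17 were listed and 6 of these had lower shares. Many of these genes, like *Fos* and *Jun*, are known to respond to tissue dissociation. Of 10 heat shock genes none was listed for subcluster 3, and at its rate of 9.01% few or none of 10 would be. With higher shares inside, 5 were listed for subcluster 4, 4 for subcluster 7 and 3 for subcluster 2. These subclusters listed 30.5%, 10.3% and 4.98% of all genes, in the same order. In subcluster 5, which listed 38.0% of all genes, 2 heat shock genes had higher and 3 had lower shares. The part of cell handling in the shares of subcluster 3 was not tested.

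**Figure D3:**
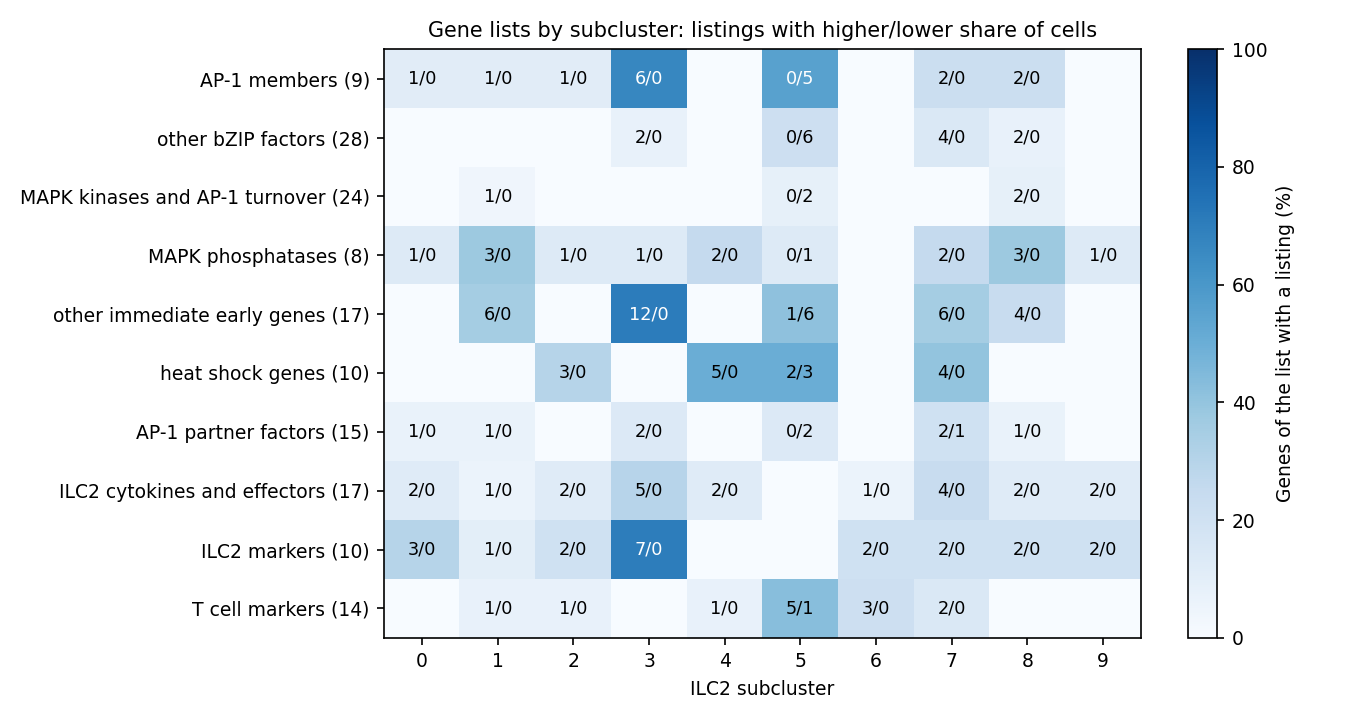
Genes of each list (rows, list size in brackets) with a listing for each ILC2 subcluster (columns): colour gives the percentage of the list, and each pair of numbers counts the listings with a higher and with a lower share of cells inside. An empty field has no listing. Subcluster 3, which listed 9.01% of all genes, lists 6 AP-1 genes and 12 other immediate early genes with higher shares.

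Of 28 other basic leucine zipper genes, 11 had any listing. Subcluster 3 listed *Cebpb* (62.5% against 48.8%) and *Crem* (26.2% against 17.1%). Subcluster 7 listed 4 with higher shares, among them *Cebpb* (77.5% against 50.5%) and *Crem* (38.5% against 18.1%), subcluster 8 listed 2 with higher shares, and subcluster 5 listed 6, all with lower shares, as had 978 of its 1000 listings. Over all genes, 9.01% were listed for subcluster 3, 10.3% for subcluster 7, 9.62% for subcluster 8 and 38.0% for subcluster 5. Of 24 genes for MAP kinases and AP-1 turnover 4 had a listing, beside 2629 genes of a median of 14354 features that the study's p-values were adjusted for. None of the 24 was listed for subcluster 3, which listed 9.01% of all genes. Of 8 MAP kinase phosphatases, which switch the pathway off and are induced by it, *Dusp1* was found in 84.3% of subcluster 3 cells against 74.4%, in 85.2% of subcluster 1 cells against 73.6% and in 83.7% of subcluster 2 cells against 74.2%.

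Among 15 known partners of AP-1, *Gata3* was found in 94.8% of subcluster 3 cells against 90.2%, and in 93.6% of subcluster 0 cells against 89.9%. *Gata3* was thus listed for both subclusters in which the share of *Fosb* was higher. *Rora*, needed for ILC2 development, was found in 92.3% of subcluster 3 cells against 89.8%. *Runx3* was listed for subcluster 7 alone (84.5% against 55.2%), with *Batf* and *Fosl2*, and *Runx1* for subcluster 5 alone, with a lower share (27.6% against 53.8%).

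Effector genes of ILC2s were listed both with the FOS genes and with *Batf*. Subcluster 3, which listed 9.01% of all genes, listed 5 of 17: *Calca*, which encodes a neuropeptide (55.2% against 21.8%), *Tnfsf11*, which encodes RANKL (36.3% against 17.4%), the chemokine gene *Cxcl2* (29.1% against 12.5%), the cytokine gene *Csf2* (33.4% against 17.9%) and *Areg*, which encodes amphiregulin (51.7% against 37.4%). Some of these were listed elsewhere too: *Tnfsf11* and *Calca* for subcluster 0 (37.0% against 13.9% and 33.3% against 24.3%), and *Areg* for subclusters 7 (62.0% against 39.2%) and 8 (57.3% against 39.5%). *Il13* was not listed for subcluster 3. All 3 subclusters that listed *Batf* also listed *Il13*, with shares of 52.8% against 33.0% in subcluster 1, 56.5% against 32.6% in subcluster 2 and 60.5% against 36.6% in subcluster 7. *Il13* was listed as well for subclusters 4 (62.1% against 34.4%) and 8 (69.7% against 36.8%), without *Batf*. *Il5* was listed for subclusters 7 (46.5% against 28.1%) and 9 (42.0% against 28.3%). These are shares of cells in a cluster and do not show that the same cells held both genes.

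Of 10 ILC2 marker genes, 7 were listed for subcluster 3 (9.01% of all genes), *Il1rl1* among them at 97.0% against 87.8%, and no T cell marker was listed there. The 9 NK and ILC1 markers had no listing for any subcluster. *Stab2*, a gene of the endothelial list, was listed for subclusters 3 (59.5% against 30.1%), 0 (68.4% against 21.7%) and 9 (70.4% against 34.2%). *Cdh5*, *Kdr* and *Egfl7* had no listing for any subcluster. Among the cell types, *Stab2* was listed for ILC2, ILC2_2 and gdT_TypeII cells and not for endothelial cells. The endothelial cells listed *Cdh5*, *Egfl7* and *Pecam1*. *Pecam1*, the other endothelial gene of the list, was higher in subclusters 1 (38.1% against 24.6%) and 8 (49.4% against 27.1%) and lower in subcluster 5 (8.6% against 28.0%). The B lineage gene *Cd79b* was higher in subcluster 1 (38.7% against 19.9%), where *Batf* was listed. Genes of the T cell list were also higher in the subclusters that listed *Batf*. *Trbc2* was at 86.1% against 80.7% in subcluster 1 and at 87.2% against 80.6% in subcluster 2. In subcluster 7, *Tcrg-C1* was at 42.0% against 25.8% and *Trbc1* at 86.5% against 79.5%. Without a *Batf* listing, genes of that list were higher in subclusters 4 (*Lck*, 40.3% against 14.9%), 5 and 6 (*Trbc2*, 88.0% against 81.5%). Subclusters 0 and 3, which listed *Stab2*, are also those with the higher shares of *Fosb*. Subcluster 7 listed *Fcer1g* and *Tyrobp*, 2 of the 11 genes of the myeloid and basophil list, found in 26.5% to 32.0% of its cells. Among the cell types, both were listed for basophils and macrophages and also for ILC1, ILC1_ILC3 and NK cells. The part of other cell types in the AP-1 shares was not tested.

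Across the 21 cell types, AP-1 genes had 25 listings in 12 types, 22 with a higher share and 3 with a lower share inside. Over all 4422 listings of 1679 genes, 83.6% had a higher share inside. The median difference of the 25 was 10.3 points, against 18.4 over all listings, and *Fos*, *Fosb* and *Jun*, with 6 listings each, were among the 9.95% of genes listed for 6 or more types. Shares in this table are on another scale: *Fosb* was above 0 in 96.7% of the cells of both ILC2 types together (45.0% of the cells) but in 76.7% in the subcluster table, and 42 of 43 genes compared in this way were higher in the cell type table, by a median of 18.9 points. *Cd3e* and *Trdc* had values above 0 in 83.5% and 71.0% of all cells here, against 5.8% and 7.7% of the ILC2s in the subcluster table. A value above 0 in the cell type table is therefore not read as detection of a transcript, and shares are compared only within a table.

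**Figure D4:**
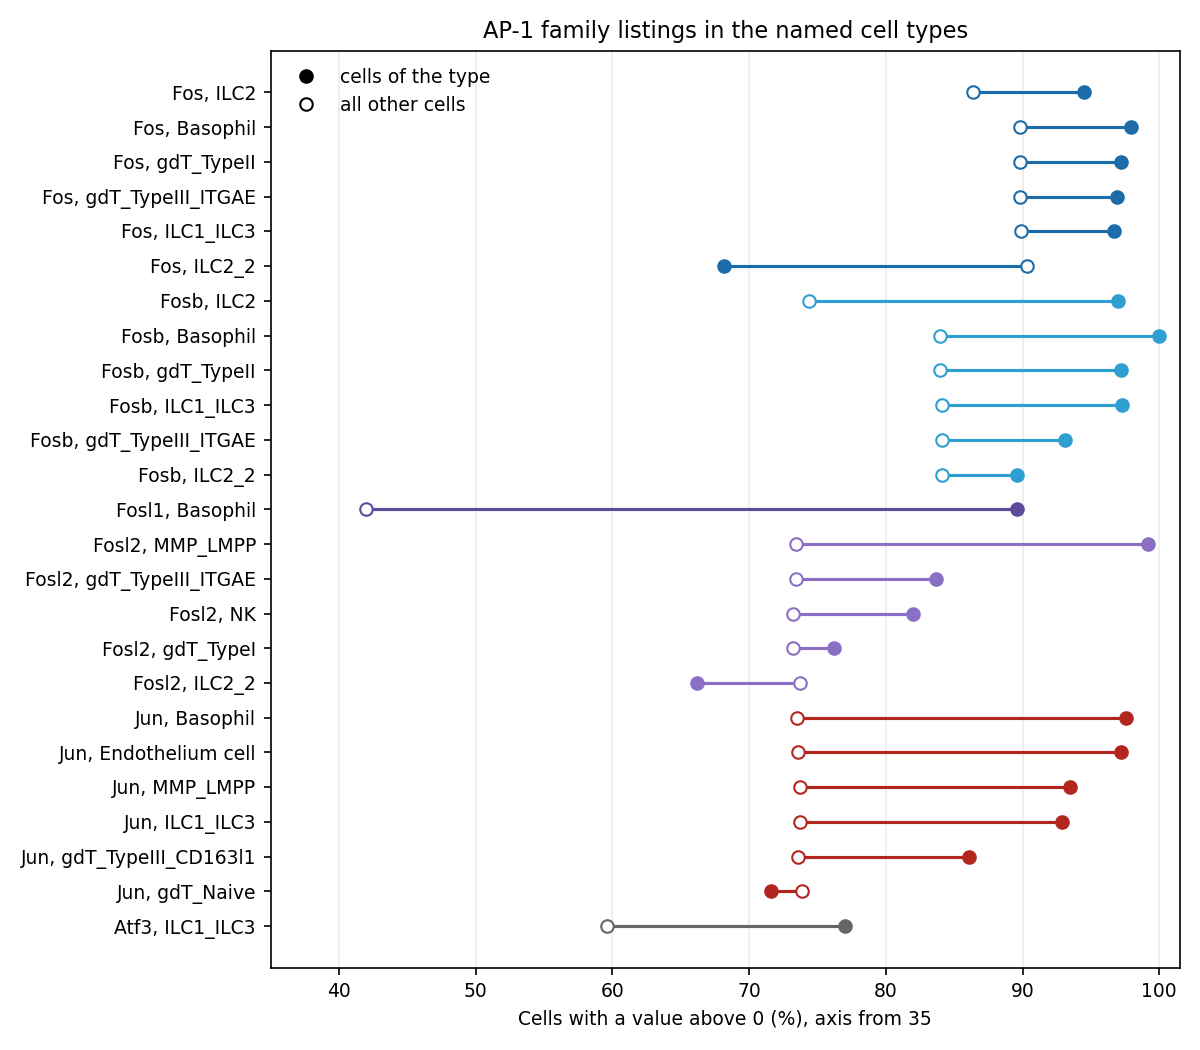
Percentage of cells with each AP-1 gene above 0 (horizontal axis, which starts at 35%) in the cells of each type that listed it (filled) and in all other cells (open), all 4 libraries pooled. *Fosl1* in basophils shows the widest gap, 89.6% against 42.0%, and *Fos* in ILC2_2 cells the widest gap in the opposite direction, 68.2% against 90.3%.

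*Fos* and *Fosb* were listed for the same 6 types, and no other gene of the table had that set. The types were basophils, ILC1_ILC3, ILC2, ILC2_2 and 2 types that the study names gdT_TypeII and gdT_TypeIII_ITGAE. Of all genes, 16.4%, 13.4%, 8.10%, 11.9%, 1.67% and 11.7% were listed for these types, in the same order. The name gdT_TypeII, for γδ T cells, was not borne out by its 28 listings. None of 14 T cell markers was among them, whereas 4 of 10 ILC2 markers were (*Areg*, *Gata3*, *Il1rl1* and *Il2ra*), all with higher shares. For gdT_TypeIII_ITGAE, 6 T cell markers were listed, all with higher shares. ILC2 was the largest type, with 43.2% of the cells. There *Fosb* was above 0 in 97.0% of cells against 74.4% of all others, an odds ratio of 11.1 that ranked 7 of 136, and *Fos* in 94.5% against 86.4%, an odds ratio of 2.70.

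The 2 genes differed in ILC2_2 cells, a type with 1.78% of the cells. *Fosb* was above 0 in 89.6% of them against 84.1% of all others, whereas *Fos* was above 0 in 68.2% against 90.3% and *Fosl2* in 66.2% against 73.7%. Lower shares were common in this type, at 53.0% of its listings. Of 10 ILC2 markers 5 were listed for it, 2 with higher and 3 with lower shares. *Ighm* and *Igkc* of the B lineage list and *Pecam1* and *Stab2* of the endothelial list had higher shares. The 3 listed T cell markers had lower shares. The part of other cell types in the AP-1 shares of ILC2_2 cells was not tested. Of the 200 genes listed for this type, *Fos* ranked 199 by odds ratio when ordered from high to low. In the other 5 types *Fos* and *Fosb* both had higher shares inside. Basophils had *Fosb* at 100% against 84.0% and *Fos* at 97.9% against 89.8%. ILC1_ILC3 cells had *Fosb* at 97.3% against 84.1% and *Fos* at 96.7% against 89.9%. In gdT_TypeII cells both genes were at 97.2%, against 84.0% for *Fosb* and 89.8% for *Fos*. In gdT_TypeIII_ITGAE cells *Fosb* was at 93.1% against 84.1% and *Fos* at 96.9% against 89.8%. Over the types without a listing the mean share was 71.8% for *Fosb* and 86.0% for *Fos*.

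*Fosl1*, which encodes FRA-1, was listed for basophils alone, at 89.6% against 42.0%, a difference of 47.6 points and an odds ratio of 11.9. By odds ratio *Fosl1* ranked 124 of the 275 genes listed for basophils. Basophils listed 4 AP-1 genes, *Jun* among them at 97.6% against 73.5%, and 16.4% of all genes. The median difference of the 4 was 20.1 points, against 33.3 points over all genes listed there. The label of this type, 1.07% of the cells, was checked on its markers: 7 of 11 myeloid and basophil genes were listed, among them *Mcpt8*, *Fcer1a*, *Ms4a2* and *Cpa3*, and 6 of the 7 had a higher share inside. *Atf3*, a stress-induced factor, was listed for ILC1_ILC3 cells alone, at 77.0% against 59.6%. This type, 0.592% of the cells, thus also listed 4 AP-1 genes, with *Jun* at 92.9% against 73.7%. It listed 13.4% of all genes, and the median difference of the 4 was 15.3 points, against 20.3 points over all genes listed there.

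The other listings of *Jun* were in types for which *Fos* was not listed. *Jun* was above 0 in 97.2% of endothelial cells against 73.6%, in 93.5% of MMP_LMPP cells (a label for early progenitors) against 73.7% and in 86.1% of gdT_TypeIII_CD163l1 cells against 73.6%. These types listed 23.6%, 24.0% and 11.4% of all genes. The differences of *Jun* were 23.6, 19.8 and 12.5 points, against medians of 45.2, 29.8 and 12.2 points over all genes listed there. In gdT_Naive cells *Jun* was above 0 in 71.6% against 73.9%, in a type that listed 8.87% of genes and in which 74.5% of listings had lower shares. *Jun* was not listed for ILC2 cells.

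*Fosl2* was above 0 in 99.2% of MMP_LMPP cells against 73.4%, an odds ratio of 44.9 (42.2 to 48.1). The odds ratio ranked 43 of the 403 genes listed there. The difference of 25.8 points ranked 252 and lay below the median of 29.8 points. It was also higher in NK cells (82.0% against 73.2%), in gdT_TypeI cells (76.2% against 73.2%) and, with *Fos*, in gdT_TypeIII_ITGAE cells (83.7% against 73.4%). Of all genes, 11.7% were listed for NK cells and 8.64% for gdT_TypeI cells. *Fosl2* and *Fos* were both listed for ILC2_2 and gdT_TypeIII_ITGAE cells, which were 2 of the 5 types of *Fosl2* and 2 of the 6 types of *Fos*.

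The other 9 types, among them CD4 and CD8 T cells, regulatory T cells, ILC1, ILC3 and macrophages, listed no AP-1 gene. These types listed from 94 to 513 of the 1679 genes, and at such rates few or none of 6 genes would be listed for a type. Over all cells of the table the share was 89.9% for *Fos*, 84.2% for *Fosb*, 73.8% for *Jun*, 73.5% for *Fosl2*, 59.7% for *Atf3* and 42.5% for *Fosl1*. *Jun* and *Fosl2* lay closest in this order, at 73.78% and 73.53%. For *Fosl1* and *Atf3*, 42.0% and 59.6% of the cells outside the single type that listed each had a value above 0.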

How the data were processed

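The study's cells were sequenced as 4 droplet-based libraries, which the authors aligned with Cell Ranger to mm10, filtered to cells with at least 500 genes, normalized and clustered in Seurat (3.1.2 and 4.0.4). By the study's methods, flow cytometry served to exclude doublets and dead cells, and no computational doublet call is described for these cells. The deposited tables hold neither depth nor cell numbers. The cell totals that the study states were not used here, and the Seurat assay behind each table is not given in the sources used here. The deposited tables give, for each gene and cluster, the fraction of cells of the cluster with a value above 0 and that of the remaining cells, rounded to 3 decimals. Fractions were turned into percentages of cells. The other deposited columns hold the authors' own comparisons: log2 fold changes between a cluster and all other cells, and p-values over cells, raw and adjusted. Neither was used as a result. The log2 fold changes were read only for their sign (0 were negative), and the quotient of the authors' adjusted and raw p-values gave the number of features adjusted for, 2000 in the cell type table and a median of 14354 in the subcluster table.

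Groups were taken from the labels. Cluster sizes were solved by least squares (numpy 2.4.6, pandas 2.3.3) from the identity that the share outside plus the size times the difference equals the share in all cells, over 1045 genes of the cell type table and 768 of the subcluster table with at least 2 listings. On simulated data the largest error was 0.0871 points (1679 genes) and 0.0364 points (2629 genes). Sizes gave shares over all cells and mean shares over clusters without a listing. The 9 genes and all lists were chosen with earlier results of these data known. All listings of the 9 genes are reported. Of each other list the named genes are up to 4 with the largest differences in subcluster 3, the subcluster with the most AP-1 listings, plus *Gata3*, *Il13*, *Il5*, *Areg*, *Runx1* and *Runx3*. An item that the rule also names is not reported here. The 3 closest genes are named by likeness, and marker genes of other cell types beside the results they move with. Promoters and their motif matches came from RefSeq on GRCm38.p6 and gene positions from GENCODE on the same assembly, mm10. Alternatives were minimum differences in share of 0.05 and 0.1, leaving out subcluster 5 and other fits of the sizes.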

Additional observations from a re-analysis of the deposited data

How the results depend on the processing

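The counts of listings depended on the smallest difference in share. With a difference of at least 0.1 in either direction, subcluster 3 kept 3 AP-1 listings (*Fos*, *Fosb* and *Fosl2*) in place of 6, and with shares at least 0.1 higher inside, the cell types kept 13 listings in place of 25, of which 22 had a higher share at all. In the subclusters 12 of the 18 listings passed the same minimum in either direction, 9 of the 13 listings with a higher share passed a minimum of 0.05 or 0.1, and 13 of the 18 lay outside subcluster 5. With the solved sizes scaled to a sum of 1, subcluster 1 moved from 20.051% to 20.019% of the ILC2s, and the mean share over subclusters without a listing moved to 77.9% for *Fos* (from 77.8%), 68.5% for *Fosb*, 96.2% for *Junb* and 97.3% for *Jund*. No direction of a share was reversed. No paired analysis was possible because the tables pool all 4 libraries and each group is 1 library, and for the same reason no library could be left out. The tables hold neither depth nor cell numbers, no counting error was computed for the shares, and those in subclusters 7, 8 and 9 rest on the fewest cells.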
